A study of Xenopus laevis with 11 samples.

Results

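Genes for translation initiation and elongation factors were examined in the accessible chromatin of Xenopus laevis blastula ectoderm. Members were the protein-coding genes of the RefSeq table for the v10.1 assembly whose symbol starts with eif or eef and a digit, which gave 94 gene copies of 34461 protein-coding genes. They covered 61 different genes, with 48 copies on L chromosomes and 46 on S chromosomes. X. laevis is an allotetraploid: its L and S subgenomes come from 2 ancestral species, and the matching copies of a gene are called homeologs. Of the 94 copies, 66 formed 33 homeolog pairs, and 28 had no partner of the other letter that could be paired in this table.

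ATAC-seq tags DNA that is open to the Tn5 transposase, and it was applied here to wild-type animal caps (strain label Xla.NXR-WTNXR) at Nieuwkoop-Faber stage 9, the pluripotent ectoderm cut from the late blastula. Each reaction held 2 caps, was transposed for 1 h and was amplified over 12 PCR cycles. The data used were the authors' single list of 58223 peaks from 6 pooled stage 9 libraries of 4 replicates. The 5 libraries of stage 8 were not analysed here. No groups were compared, and no value has an error between replicates. A peak within 1 kb of a gene end was found at 16 of 19 copies of ectoderm genes such as tfap2a, grhl3 and foxi1 (84.2%). The share over all protein-coding genes was 47.8%. Among genes of later tissues, such as globin, heart myosin and albumin, it was 2 of 15 copies (13.3%). Translation factor genes reached 87.2%, so this measure does not by itself mark ectoderm.

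Translation starts when eIF2 brings the initiator tRNA to the small ribosomal subunit, which eIF1, eIF1A and eIF3 prepare, while eIF4E, eIF4G and eIF4A bind the mRNA cap and unwind the leader. eIF5 and eIF5B then help the large subunit to join. In elongation, eEF1A delivers each aminoacyl-tRNA, eEF1B recharges eEF1A with GTP, and eEF2 moves the ribosome to the next codon. The egg supplies the early embryo with large stores of such factors and their mRNAs, and the embryo's own genes come into use around the mid-blastula transition, shortly before the stage sampled here.

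An end peak is a peak whose summit lay within 1 kb of the annotated start or end of a gene. Gene strand was not given in the table used, so the promoter end could not be told from the 3′ end. End peaks were found at 82 of the 94 factor gene copies (87.2%, 95% Wilson interval 79.0 to 92.5%), against 47.8% of all protein-coding genes and 61.4% of those with a gene name rather than an uncharacterised LOC symbol. Copies in no pair had an end peak in 24 of 28 cases, against 57.4% of named genes in no pair. The same window gave 105 of 136 copies of cytosolic ribosomal protein genes (77.2%, 69.5 to 83.5%) and 57 of 85 copies of proteasome subunit genes (67.1%, 56.5 to 76.1%). Intervals treat gene copies as independent, which homeologs and neighbours are not. The differences between these lists were not tested.

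Where factor genes had an end peak, the peak was of ordinary height. Both fold enrichment (fragment coverage at the summit over the local background) and its p-value were given by the authors, and together they returned the number of fragments that covered each summit. The strongest end peak of a factor gene copy had a median of 14.5 fragments (6 to 48), against 14 fragments for all protein-coding genes with an end peak. Its median fold enrichment was 7.74 at factor genes and 7.78 at all genes, and its median width was 243.5 bp and 249 bp. Strong end peaks of 20 fragments or more stood at 18 of the 82 copies (22.0%), against 23.2% of all genes with an end peak. Ribosomal protein genes had 16 such copies of 105, and proteasome genes 9 of 57. In these counts an end peak was called more often at factor genes than over all protein-coding genes, with peaks of about the same height. The 87.2% of factor copies stood beside 77.2% of ribosomal protein copies and 67.1% of proteasome copies, and these differences were not tested. Fragments were copied by PCR without molecular identifiers, so the intervals on fragments cover counting error only. Intervals on shares treat the gene copies as a random sample of genes and hold no error of the fragment counts.

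The strongest end peak sat close to the gene border. Its summit lay within 200 bp of the annotated end at 57 of 82 factor copies (69.5%), against 68.2% of all genes with an end peak, and at a median of 99.5 bp against 98 bp. It lay inside the gene at 41 of the 82 copies (50%), against 54.3% of all genes with an end peak. Peaks marked 1 end of the gene in 76 copies and both ends in 6 (7.32%, against 7.01% of all genes with an end peak). The strongest peak was also within 1 kb of an end of another protein-coding or lncRNA gene at 13 of 82 copies (15.9%), against 18.3% of all genes. These shared borders included both copies of eif4a1 with senp3, a SUMO protease gene, and both copies of eif2s1 with atp6v1d, a gene of the vacuolar proton pump. At such a border the peak cannot be assigned to 1 gene.

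**Figure D1:**
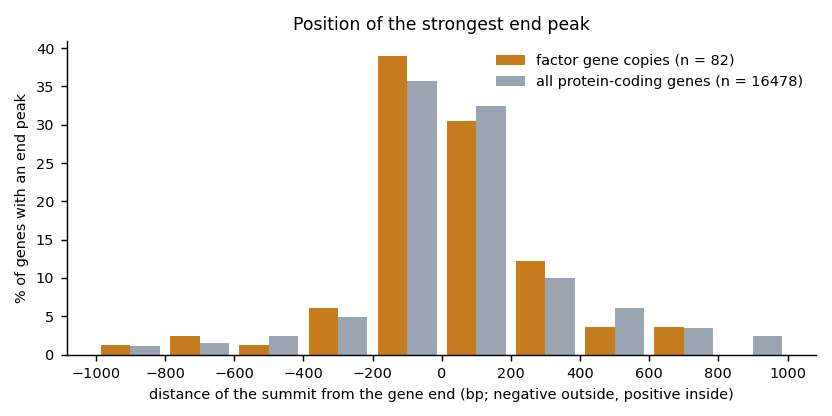
Distance of the strongest end peak from the nearest annotated gene end in bins of 200 bp (x axis, bp, negative outside and positive inside the gene), as the percentage of genes with an end peak (y axis), for factor gene copies and all protein-coding genes. The 2 bins that touch the gene end held 39.0% and 30.5% of factor copies.

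Distal peaks, which lie more than 1 kb away from every protein-coding and lncRNA gene border, were found within 10 kb of 46 of the 94 factor copies (48.9%, 39.1 to 58.9%), against 35.9% of all protein-coding genes and 41% of named genes. Together these copies had 121 distal peaks, of which 62 lay inside the factor gene itself. The distal peaks were uneven among genes: 48 of the 121 belonged to eef1a1, eef1a1o and eif4a1, and 48 factor copies had none. Their median height of 8 fragments was that of all distal peaks. No peak of any kind lay within 10 kb of 7 of the 94 copies (7.45%), against 36.9% of all protein-coding genes and 25.1% of named genes. The share was 11.8% for ribosomal protein genes and 23.5% for proteasome genes.

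End peak counts were uneven among the few elongation factor genes. eEF1A genes had an end peak at 3 of 6 copies (50%, 18.8 to 81.2%), near the 47.8% of all protein-coding genes. All 6 copies of eEF1B genes (61.0 to 100%) and both copies of eef2.1, the translocase gene, had one. The intervals of eEF1A and eEF1B overlap, and the difference was not tested. In eEF1B, eef1b2 and eef1d encode exchange factors and eef1g a structural subunit. eef1e1, grouped here by its symbol, encodes a protein of the tRNA synthetase complex. The eEF1B copies had between 9 and 19 fragments in the strongest end peak, with 16 fragments (10.5-fold) at eef1d.L and the most, 19 fragments (12.3-fold), at eef1d.S. eef2.1.L had 14 fragments (5.79-fold) and eef2.1.S had 9 fragments (4.85-fold), heights whose 95% Poisson intervals overlap (7.65 to 23.5 and 4.12 to 17.1). The strongest end peaks of eef1b2.L, eef1d.L and eef2.1.L also lay within 1 kb of an end of another gene, so they cannot be assigned to 1 gene.

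**Figure D2:**
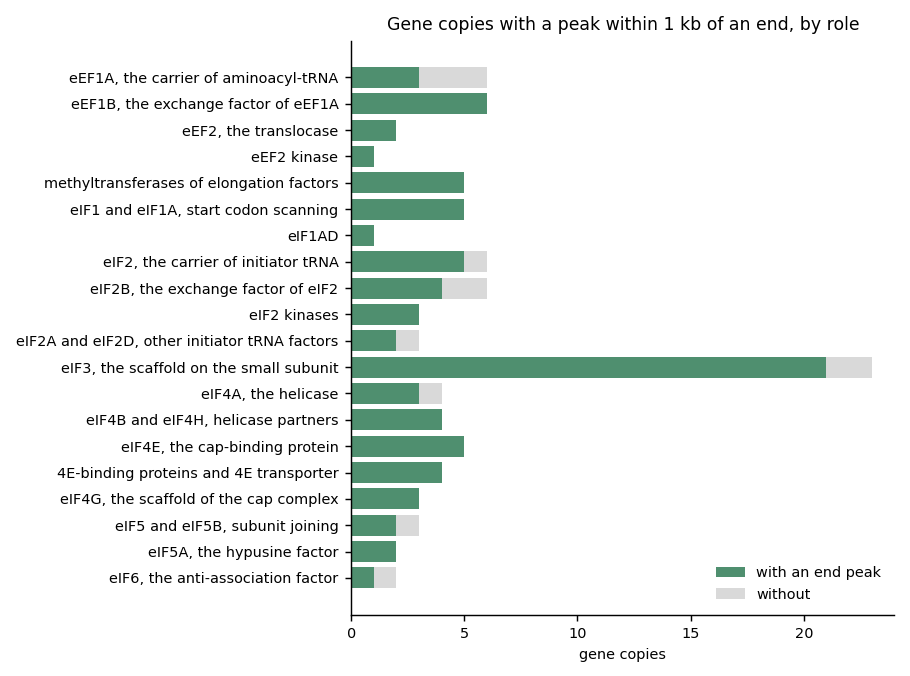
Number of gene copies (x axis) with and without a peak within 1 kb of a gene end, for each of 20 role groups of the factors (y axis). The large eIF3 group had 21 of 23 copies with an end peak, and the eEF1A group 3 of 6. Over all protein-coding genes the share was 47.8%.

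All copies of genes for regulators of the elongation factors had an end peak, against 47.8% of all protein-coding genes. eef2k, the kinase that slows elongation by phosphorylating eEF2, had 18 fragments at eef2k.L (11.7-fold), 57 bp inside the gene end. All 5 copies of genes for methyltransferases that modify eEF1A or eEF2 had an end peak, with 8 to 37 fragments. The highest was at eef1akmt1.S, whose product methylates a lysine of eEF1A, with 37 fragments (26.1 to 51.0) and 20.4-fold enrichment at chromosome 2S:150046245 to 150046736. More fragments than this stood at the strongest end peak of few genes: 98.4% of the protein-coding genes with an end peak had fewer.

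Among the scanning factors eif1, eif1b and eif1ax, which keep the small subunit ready to recognise a start codon, all 5 copies had an end peak. The share over all protein-coding genes was 47.8%. eif1.L led with 26 fragments (17.0 to 38.1) and 15.6-fold enrichment, 186 bp outside the gene. eif1ax.L had 5 end peaks, the most of any factor copy, at both of its ends, and its strongest held 11 fragments. eif1ax.S had 1 end peak of 15 fragments. eif1ad.L, a relative of the eIF1A gene, had 2 end peaks and 4 distal peaks, with 15 fragments at the strongest, which lies 173 bp outside the gene and also at the border of banf1.L.

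The eIF2 subunit genes had low end peaks. Of the 6 copies of eif2s1, eif2s2 and eif2s3, which encode the 3 subunits of eIF2, 5 had an end peak, with 8 to 12 fragments. The share over all protein-coding genes was 47.8%. The strongest was at eif2s2.L with 12 fragments, beside 11 at eif2s2.S. eif2s1.L had 9 peaks within 10 kb, of which 7 were distal, and eif2s1.S had 4, of which 3 were distal. The tallest distal peak of eif2s1.L had 31 fragments (15.5-fold), 2117 bp outside the gene.

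eIF2B, the complex that reloads eIF2 with GTP, had an end peak at 4 of 6 copies (66.7%). For this and the other groups of this paragraph, the share was 47.8% over all protein-coding genes and 61.4% over named genes. The differences from these shares were not tested. eif2b4.L led with 18 fragments (7.33-fold), 24 bp outside the gene. eif2b3.L had none, and its nearest peak was 5755 bp away. The eIF2 kinases, which stop initiation under stress, had an end peak at all 3 copies: 19 fragments at eif2ak1.L, the heme-regulated kinase, 8 at eif2ak2.L, the kinase for double-stranded RNA, and 16 at eif2ak3.S, the kinase of the endoplasmic reticulum. eif2a, which encodes another protein that can deliver initiator tRNA, had 26 fragments at eif2a.L (17.0 to 38.1) and 12 at eif2a.S (6.20 to 21.0). eif2d.S had no peak within 10 kb.

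eIF3, the scaffold that covers the small subunit, had 21 of 23 copies with an end peak, against 47.8% of all protein-coding genes. eif3m.L had the lowest of their strongest end peaks, with 6 fragments. The highest was in eif3g, with 15 fragments (8.18-fold) at eif3g.L and 41 (20.4-fold) at eif3g.S, where the peak is at chromosome 3S:122368331 to 122368596. eif3g encodes an RNA-binding subunit, and eif3a and eif3c form the core of the complex. eif3c.L had no end peak and eif3c.S had 28 fragments (17.8-fold). eif3a.L had 16 fragments (10.5-fold) and eif3a.S had 26 (16.6-fold). eif3e.L had 19 fragments (7.72-fold) and eif3e.S had 24 (15.3-fold). The S copies of eif3c, eif3a and eif3e did not differ in height beyond their counting intervals.

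The tallest end peak counted for a factor gene stood at the helicase gene eif4a1, at a border shared with senp3. eIF4A is the helicase that unwinds mRNA leaders. eif4a1.L had 48 fragments (35.4 to 63.6) and 24.4-fold enrichment in a peak of 884 bp at chromosome 3L:159904797 to 159905680, which fills the border between eif4a1.L and senp3.L. At the same border of the S chromosome eif4a1.S had 37 fragments (26.1 to 51.0) and 12.2-fold enrichment in a peak of 1930 bp, the widest strongest end peak in the family. eif4a2.L had 17 fragments. eif4a3.1.S, whose product belongs to the exon junction complex rather than to initiation, had no end peak, and its nearest peak was 6724 bp away.

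All 5 copies of eIF4E genes, for the cap-binding protein and its relatives, had an end peak, with 11 to 30 fragments. For this and the next groups, the share over all protein-coding genes was 47.8%. eif4e3.L had 22 fragments (14.1-fold) and eif4e3.S led with 30 fragments (18.6-fold), with overlapping intervals of 13.8 to 33.3 and 20.2 to 42.8. The repressors that hold eIF4E, eif4ebp2 and eif4enif1, had end peaks at all 4 copies with 8 to 15 fragments, the highest at eif4ebp2.S. Genes for the scaffold eIF4G had end peaks at all 3 copies, with 24 fragments (12.1-fold) at eif4g2.S, and the helicase partners eif4b and eif4h at all 4, with 23 fragments (13.8-fold) at eif4b.S.

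Late initiation factors varied. eif5, which triggers GTP hydrolysis by eIF2, had 25 fragments at eif5.L (15.7-fold) and 29 at eif5.S (18.4-fold). eif5a, whose hypusine-bearing product helps ribosomes past difficult codons, had 18 fragments at eif5a.L and 22 at eif5a.S. eif5b.L, for the GTPase of subunit joining, had no peak within 10 kb and none inside its gene of 50715 bp. eif6, whose product keeps the large subunit from joining too early, had no peak within 10 kb at the L copy and 13 fragments at the S copy.

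Both homeologs carried an end peak in 26 of 33 factor pairs (78.8%, 62.2 to 89.3%), against 52.9% of all 7759 homeolog pairs. An end peak at L alone was found in 1 pair (3.03%, against 11% of all pairs) and at S alone in 5 pairs (15.2%, 6.65 to 30.9%, against 8.69%). Neither copy had one in 1 pair, eef1a2, against 27.4% of all pairs. The order of neighbouring genes showed which end of the L copy matches which end of the S copy. In all 26 pairs with end peaks at both copies a peak stood at the same end in L and S, against 98.6% of the 3789 such pairs of the genome with a known orientation.

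**Figure D3:**
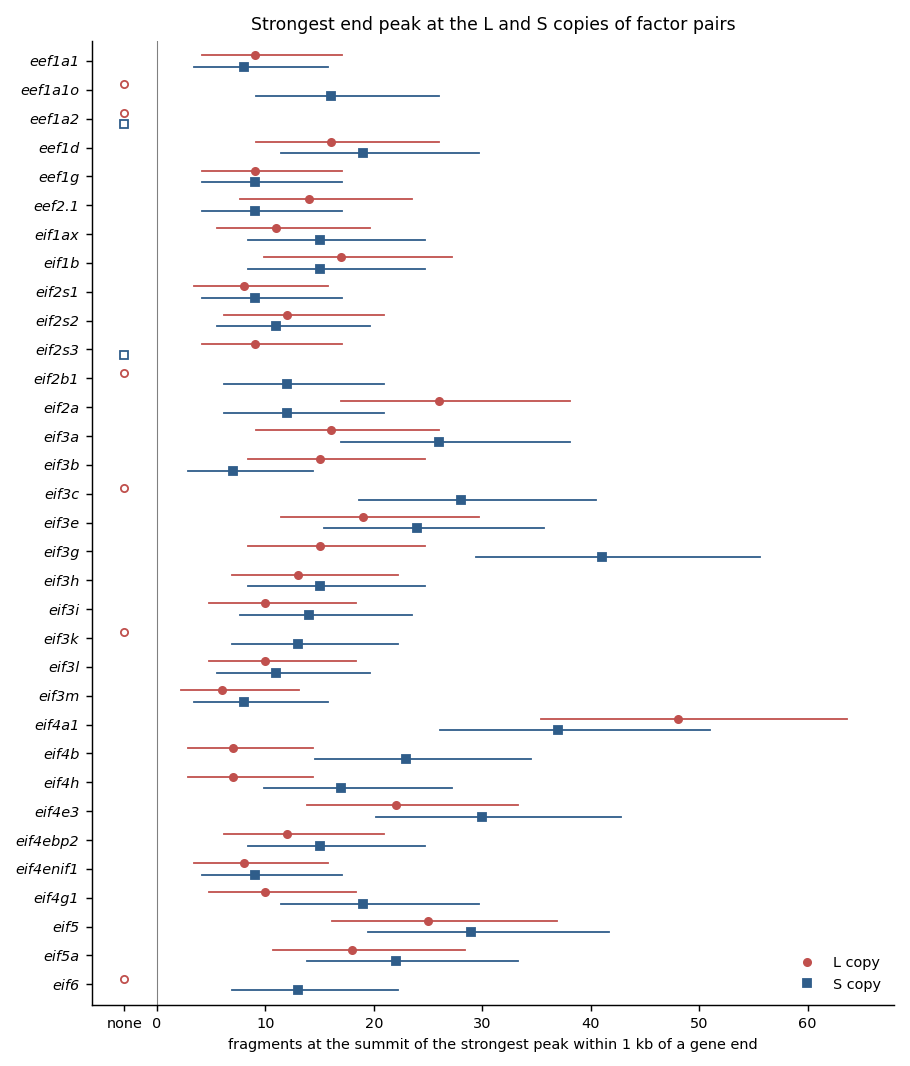
Fragments at the summit of the strongest end peak (x axis) at the L copy (circles) and the S copy (squares, drawn beneath) of 33 factor pairs, grouped by role, with exact 95% Poisson intervals as lines. Open symbols at "none" mark copies with no end peak. The intervals of L and S are apart at eif3g and at eif4b, where a higher L peak just beyond 1 kb is not drawn.

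In the 26 pairs with both peaks the L copy had more fragments at its strongest end peak in 7 and the S copy in 18 (69.2%, 50.0 to 83.5%), with 1 tie. Over all such pairs of the genome the L copy was higher in 51.1% and the S copy in 42.2%. The median log2 ratio of L to S over the factor pairs was -0.23 (-1.72 to 1.12). Overlap of intervals does not show equal heights, and no pair was tested, but in 24 of the 26 pairs the counting intervals of both copies overlapped. The exceptions were eif3g, with 15 fragments (8.40 to 24.7) at L and 41 (29.4 to 55.6) at S, and eif4b, with 7 fragments (2.81 to 14.4) at L and 23 (14.6 to 34.5) at S. At eif4b.L a higher peak of 18 fragments (10.7-fold) stood 1023 bp inside the same end, just beyond the 1 kb window. Its interval of 10.7 to 28.4 overlaps that of the end peak at eif4b.S. Among all pairs the intervals were apart in 1.87%.

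Counts of all peaks within 10 kb did not lean the same way. The L copies of the 33 pairs had 3.61 peaks on average and the S copies 3.33. More peaks stood at L in 16 pairs, at S in 13, and 4 were equal. All pairs of the genome had a mean of 2.33 at L and 2.06 at S. Without eef1a1, eef1a1o and eif4a1 (a choice made after their values were seen), the factor means were 2.97 at L and 2.33 at S. With each peak counted for the nearest gene alone they were 2.52 and 2.45, and within 50 kb 7.12 and 7.06. L led in each of these settings, but the size of its lead depended on the setting. The difference of L minus S had a standard deviation of 3.00 over the factor pairs.

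The largest differences in peaks within 10 kb were 0 at L and 11 at S for eef1a1o, 17 and 11 for eif4a1, 13 and 18 for eef1a1, 9 and 4 for eif2s1, 6 and 3 for eif1ax, 7 and 4 for eif2a, 5 and 2 for eif2s3, and 4 and 1 for eif3b, a core subunit of eIF3. Of these 8 pairs, 6 had more at L. eif3h and eif5a, with 5 and 2 each, and eif4h, with 1 and 4, differed by the same 3 peaks as the last of them. The pair eef1a1o was picked in advance for its peaks at S alone, so its rank here is no separate evidence.

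The pairs with an end peak at 1 copy fell into 2 kinds. In eif3c and eif2s3 the other copy had a peak just beyond the window. eif3c.L had its nearest peak, of 15 fragments, 1076 bp inside the gene, and eif3c.S had an end peak of 28 fragments. eif2s3.L had an end peak of 9 fragments, and eif2s3.S had a peak of 11 fragments 1073 bp inside the gene. Among factor copies with an end peak, the nearest peak was farthest from the gene end at eef1g.L (707 bp), eif4e1b.S (693 bp) and eef1a1.S (602 bp). With a window of 1100 bp, chosen after seeing the data, both pairs had an end peak at each copy, giving 28 of 33 pairs.

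In eef1a1o, eif2b1, eif3k and eif6 the L copy had no peak within 10 kb. The S copies had 16 fragments at eef1a1o.S (10.5-fold), 12 at eif2b1.S (6.61-fold), 13 at eif3k.S (7.33-fold) and 13 at eif6.S (8.38-fold). Their L copies lay in stretches without peaks of 62.0 kb, 56.4 kb, 67.5 kb and 217 kb. Stretches at least that long made up 20.8%, 22.3%, 19.5% and 5.09% of the intervals between adjacent peaks on the chromosomes. These shares are by number of intervals. Long intervals can hold more genes, so the shares do not give how often a gene lies in such a stretch. By gene, 36.9% of all protein-coding genes and 25.1% of named genes had no peak within 10 kb. In 3 of these genes the table gives a shorter L than S copy: 4990 and 9495 bp for eif2b1, 5897 and 9099 bp for eif3k, and 5088 and 11515 bp for eif6. The nearest peaks of these L copies were 13352, 18936 and 75698 bp away. At eef1a1o the L copy is the longer one, with 6601 bp against 4204 bp at S. A link between gene length and the missing end peaks was not tested. Whether reads can be placed at these L copies was not tested.

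The next homeolog pairs in gene order differed among these genes. Unpaired genes can lie between them. On either side of eif2b1, both copies of ccdc92 and tmed2 had end peaks, but the first peak below eif2b1.L was 38092 bp away. Next to eif3k, clip3 also had an end peak at S alone, and tspan15 had them at both copies. On either side of eif6, fam83c had none and znf281 had them at both, but the first peak above eif6.L was 135822 bp away.

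eEF1A is encoded by eef1a1, the somatic form that the embryo switches on at the mid-blastula transition, by eef1a1o, the form of the oocyte, and by eef1a2, which in mammals is the form of muscle and neurons. At eef1a2 no copy had an end peak, eef1a2.L had 1 peak 9707 bp away (12 fragments), and eef1a2.S had none within 10 kb.

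eef1a1o.L lies at chromosome 2L:94468698 to 94475298. No peak was called inside it or within 10 kb, and the nearest, of 6 fragments (4.24-fold), was 16832 bp from its lower end, at the border of eloa.L and rpl11.L. eef1a1o.S lies at chromosome 2S:82679654 to 82683857. Outside its lower end stood a peak of 10 fragments (6.76-fold) at 1265 bp. Inside the gene were 4 peaks of 8, 6, 9 and 6 fragments, at 1053, 1770, 2269 and 2531 bp from the lower end. None of these was within 1 kb of an end, so all 5 counted as distal. At the upper end came the 2 end peaks, with 12 fragments (7.99-fold) at 142 bp and 16 fragments (10.5-fold) at 645 bp outside the gene, in the gap of 1132 bp before ppt1.S, the gene of a lysosomal thioesterase. Beyond them, 4 peaks of 6, 15, 7 and 12 fragments lay within ppt1.S, at 1263, 4986, 6288 and 7216 bp from eef1a1o.S. All 11 peaks were within 10 kb of an end of ppt1.S too, and both end peaks of eef1a1o.S were also end peaks of ppt1.S. Of the 11 peaks, the one of 16 fragments passed the stricter q threshold (−log10 q from 10 up).

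Gene order was the same on both chromosomes, with eloa and rpl11 on the lower side and ppt1 and cap1 on the upper side. The gap to ppt1 was 10288 bp on L and 1132 bp on S. Within 25 kb of eef1a1o there was 1 peak on L and 15 on S. ppt1 had no end peak at L and 3 at S, but these 3 are among the 11 peaks of eef1a1o.S and are no separate evidence. rpl11, a ribosomal protein gene, had end peaks at both copies, 1 at L and 2 at S. eloa had 1 at each copy, and cap1 had 2 at L and 1 at S. The end peak of eloa.L and that of rpl11.L are the same peak of 6 fragments, so they are no separate evidence. It lies at the lower end of rpl11.L, while both end peaks of rpl11.S, of 7 and 18 fragments, lie at its upper end. The border of eloa.S and rpl11.S also had a peak, of 9 fragments (4.85-fold). It is the end peak of eloa.S and lies just beyond 1 kb from the lower end of rpl11.S. The authors' mapping filter drops reads that match L and S equally well. Whether reads can be placed at eef1a1o.L was not tested, so 0 peaks there, against 11 at eef1a1o.S, does not show that the L copy was less accessible.

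**Figure D4:**
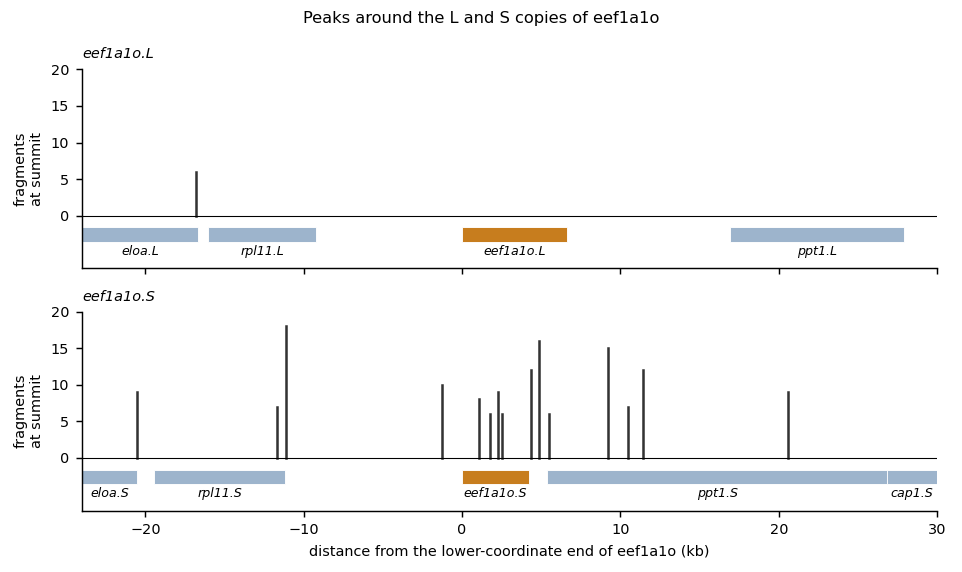
Peaks around eef1a1o.L (upper panel) and eef1a1o.S (lower panel), as fragments at the summit (y axis) against distance from the lower-coordinate end of the gene (x axis, kb), with genes as boxes. The L panel has no peak within 10 kb of the gene, and the S panel has 11 within and beside it.

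Both copies of eef1a1 had many peaks. eef1a1.L had 13 peaks within 10 kb and eef1a1.S had 18, the most of any factor copy. The tallest stood inside the gene, away from its annotated ends: at eef1a1.L, 32 fragments (10.6-fold) 4422 bp inside the upper end, and at eef1a1.S, 33 fragments (20.1-fold) 4356 bp inside it. Each copy had 7 peaks within the last 5 kb of the gene. At the gene borders themselves the strongest end peaks were low, with 9 fragments 764 bp outside eef1a1.L and 8 fragments 944 bp outside eef1a1.S. Peaks thus ran through the upper part of the gene and past its end at both homeologs, at like distances from that end.

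eif4a1 had a similar spread. eif4a1.L had 17 peaks within 10 kb, of which 8 were inside the gene and 6 inside senp3.L. eif4a1.S had 11, of which 2 were inside the gene and 5 inside senp3.S. Besides the border peak of 48 fragments, eif4a1.L had a peak of 23 fragments (14.8-fold) 1428 bp inside the same end and one of 24 fragments (15.4-fold) near the far end of senp3.L. The wide border peak of eif4a1.S spans 1930 bp at chromosome 3S:131205996 to 131207925, where the L chromosome had separate peaks.

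**Figure D5:**
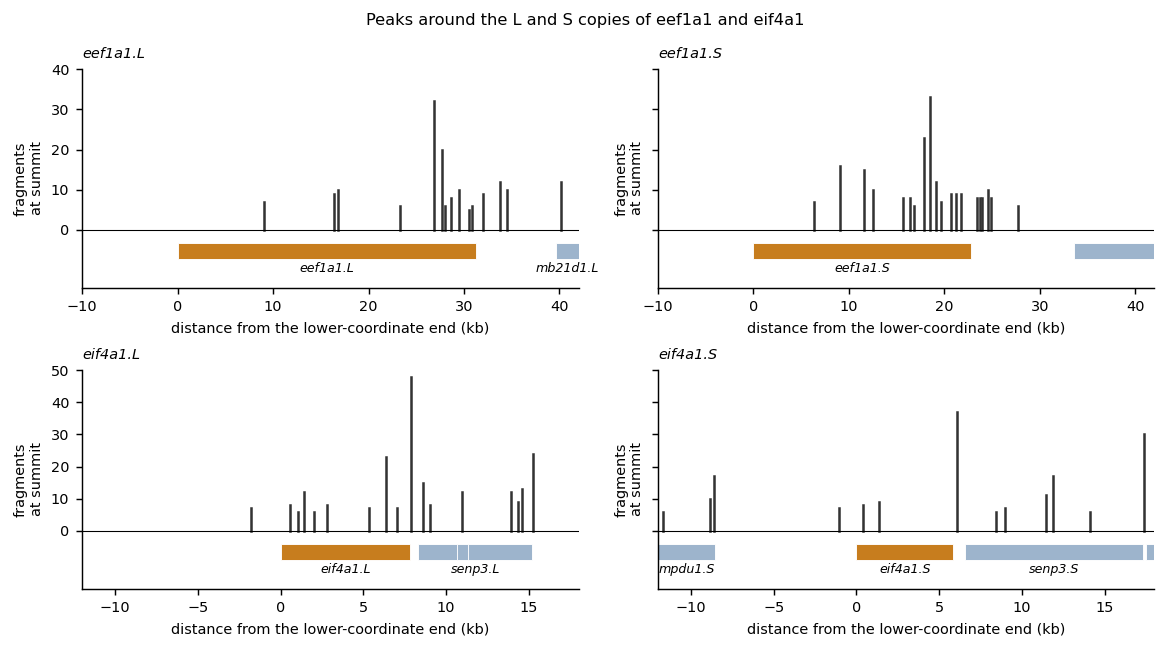
Peaks around eef1a1 (upper row) and eif4a1 (lower row) at the L copy (left) and the S copy (right), as fragments at the summit (y axis) against distance from the lower-coordinate gene end (x axis, kb), with genes as boxes. The tallest peak stands at 32 and 33 fragments within eef1a1, and at 48 and 37 fragments beside eif4a1.

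Other genes of translation were also examined. A list of genes for release factors, poly(A)-binding proteins and their partners, mitochondrial factors, hypusine and diphthamide enzymes and mRNA-specific regulators matched 50 copies, of which 41 had an end peak (82%, 69.2 to 90.2%, against 47.8% of all protein-coding genes) and 18 a distal peak (36%, 24.1 to 49.9%, against 35.9%). 3 copies, ltv1.L, rps6kb1.L and tsfm.S, had no peak within 10 kb (6%, against 7.45% of factor copies and 36.9% of all protein-coding genes). larp1.L, for a regulator of mRNAs of the translation machinery, had the most peaks within 10 kb in this list, 10, against 3 at larp1.S.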

How the data were processed

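ATAC-seq libraries of stage 9 animal caps were pooled by the authors into 1 peak list. According to the methods and the submitters' processing notes, read pairs were mapped to the v10.1 genome with Bowtie2 2.4.2, filtered for mapping quality and sub-nucleosomal length, and peaks were called with MACS2 2.2.7.1 against CUT&RUN libraries without antibody; bedtools 2.30.0 is also named. The authors also dropped peaks at repeats of ribosomal RNA and at small RNA genes. The deposited list gives, per peak, the fold enrichment (a ratio), −log10 of the p-value and of the q-value, the summit offset, and a score, equal to 10 times −log10 q rounded down in 99.98% of peaks. The mapping filter removes reads that fit L and S equally well, pooling weights libraries by depth, the control is another assay, and the total depth is unknown.

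The fold enrichment and p-value were inverted, with the pseudocount of 1 of MACS2, to whole fragments at each summit (relative tolerance 2e-05, all 58223 peaks solved, 3 with 2 solutions, none of them a factor peak). No peak had under 5 fragments. The median was 9, and a single count of 9 has an exact 95% Poisson interval of 4.12 to 17.1. A gene without a peak was not shown to be closed, since depth and the mapping filter both limit what could be called. The inversion and the window counts were tested on simulated data.

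Gene positions came from the RefSeq table of the same assembly, which gives start and end but no strand, exons or sequence, so exons, introns, UTRs, promoter motifs and sequences were not analysed here. Pairs are genes with 1 .L and 1 .S copy on matching chromosomes; orientation came from the order of up to 3 paired neighbours on each side. eif4e2.L is annotated on chromosome 3S and was in no pair. Intervals are Wilson for shares and exact Poisson for fragments. No test was made, since 1 pooled list has no replicates. Members and lists were chosen with earlier results of these data known, and eef1a1o was picked for its peaks at S alone. Genes named were all eEF1A copies, the 10 copies with most peaks within 10 kb, the 8 pairs differing most, the genes of the 10 end peaks of highest fold, pairs with an end peak at 1 copy, copies with no peak within 10 kb and the leading copy of each role. Others, such as eif2b3.L, eif2ak2.L, eif3m.L, eif4a2.L and eif4a3.1.S, were named after their values were seen, to complete a role group or a pair. Python 3.11.15, numpy 2.4.6, pandas 2.3.3 and scipy 1.17.1 were used.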

Additional observations from a re-analysis of the deposited data

How the results depend on the processing

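The 6 main values were recomputed under other settings, giving 33 values, of which 22 stayed within the interval of a share or within 1.5 times another value. None changed direction. Keeping 11892 peaks by a stricter q threshold (−log10 q from 10 up) lowered the share of factor copies with an end peak to 43.6% (all genes 22.9%), the distal share to 9.57% (5.12 to 17.2%, all genes 6.76%), the share of pairs with an end peak at both copies to 27.3% (15.1 to 44.2%, all pairs 19.6%) and the eef1a1o difference to -1 peak, since fewer peaks remained. The intervals of the distal share and of the pair share then included the values of all genes and all pairs. The mean difference of L minus S in peaks within 10 kb was 0.27 as reported (all pairs 0.27). It was 0.030 with that threshold (all pairs 0.081) and 0.061 with each peak at the nearest gene alone (all pairs 0.18). Within 50 kb it was 0.061 (all pairs 0.64). Without eef1a1, eef1a1o and eif4a1, a setting added later, it was 0.63. With an end window of 500 bp the distal share was 60.6% (all genes 42.6%), because more peaks then count as distal. With a window of 50 kb it was 76.6% (all genes 68.3%). Counting each peak for the nearest gene alone gave a difference of -6 peaks at eef1a1o, as peaks nearer ppt1.S were no longer counted. A window at the transcription start alone was not run, since the strand was not given, and promoter motifs were not searched. Leaving out replicates was not run either. No paired analysis was possible because the libraries are pooled in 1 list. A median of 9 fragments per summit limits comparisons of single copies.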

Other observations

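All 14 copies of accessory genes (kinases, methyltransferases, 4E-binding proteins, the 4E transporter and eif1ad) had an end peak (78.5 to 100%). So did 68 of 80 copies of the translation machinery itself (85%, 75.6 to 91.2%). These intervals overlap, and the share over all protein-coding genes was 47.8%. The median strongest end peak was 13.5 fragments in the accessory genes and 14.5 in the machinery genes. Over the 26 pairs with both peaks, Spearman's rho between the fragments at the L and S copies was 0.55, beside 0.45 over the 4108 such pairs of the genome; the points share 1 pooled list and its depth.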
